A study of Mus musculus with 5 samples.

Results

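Serpins are a family of protease inhibitors that share 1 fold and mostly act as suicide substrates: the protease cuts an exposed loop, and the inhibitor traps it in an inactive complex. The genes described here are those mouse features whose symbol starts with Serpin and which held 50 or more UMIs (unique molecular identifiers, each standing for 1 captured RNA molecule) in any of 5 single-cell libraries of mouse trachea. Of 61 such features, 21 reached that level, 18 held between 1 UMI and 49 UMIs at most, and 22 held none. The lowest members were Serpine2, with at most 54 UMIs in a library, and Serpina9, with 69. Among the features that fell short were Serpinb1b with 48, Serpina1d with 35, Serpini1 with 33 and Serpinc1 with 22.

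All mice were of the 129 X1/S1 strain, and the recipients were wild-type adults. The 2 recipients were given 2% polidocanol, a detergent that strips the airway lining, into the trachea and received 6e6 iBCs (basal cells made from mouse embryonic stem cells) 5 hours later. Of the cells that passed a Calcein Blue live gate, GFP-positive ones made the libraries called donor-derived and GFP-negative ones those called endogenous, 1 recipient on day 40 and 1 on day 56. The labels do not say what drives GFP. The control was 1 library of live cells from a trachea with neither injury nor transplant. Each group of 2 libraries therefore also spans 2 days, the libraries of a day come from 1 recipient, and p-values measure the spread between these libraries only.

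The libraries held between 7644826 and 25566691 mouse UMIs, and 6554 cells were kept. Clusters of these cells were named from marker lists, giving 66 to 1103 basal-like, 148 to 350 secretory-like and 41 to 231 ciliated-like cells per library. Microfold-like cells numbered 216 and 27 in the donor-derived libraries of day 40 and day 56, 9 and 8 in the endogenous ones and none in the control. Immune cells numbered 208 and 393 in the endogenous libraries and at most 11 elsewhere. Different clusters held most cells of a class in the 2 groups: among basal-like cells the donor-derived ones fell into clusters 0, 5, 7 and 8 and the others into cluster 1, donor-derived secretory-like cells in cluster 4 and the others in cluster 3, and donor-derived ciliated-like cells mostly in cluster 15 and the others in clusters 6 and 12. Cluster 15 held 22 of the donor-derived ciliated-like cells of day 40 and 112 of those of day 56. Clusters 6 and 12 held 11 and 8 of those of day 40, and 0 and 5 of those of day 56. The part of these cells in the ciliated-like results was not tested. Cluster 5 was named basal-like by its markers but was led by interferon-inducible genes such as Cxcl10 and Gbp2b. At most 2 barcodes were shared by any pair of libraries. In basal-like cells the T and NK cell list summed to at most 1.18 CPM (a gene's UMIs per 1000000 UMIs of the class), and the macrophage list to 8.07 to 93.8 CPM, most of it Lyz2. In secretory-like cells the macrophage list summed to 76.1 and 231 CPM in the donor-derived libraries of day 40 and day 56, 4462 and 10017 CPM in the endogenous ones and 3445 CPM in the control. Nearly all of this was Lyz2, 3 to 5 of the list's 10 genes held a UMI, and its part in the secretory-like results was not tested.

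Clade B serpins lack a classical signal peptide and act mainly inside cells, where they neutralise proteases that leak from granules or lysosomes. Clade A serpins are mostly secreted, as is the complement regulator C1 inhibitor. A few members inhibit no protease: Serpinh1 (Hsp47) is a collagen chaperone of the endoplasmic reticulum. The members lie in groups of neighbours: 6 on chromosome 1, 7 on chromosome 12 and 5 on chromosome 13, with single members on chromosomes 2, 7 and 11.

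**Figure D1:**
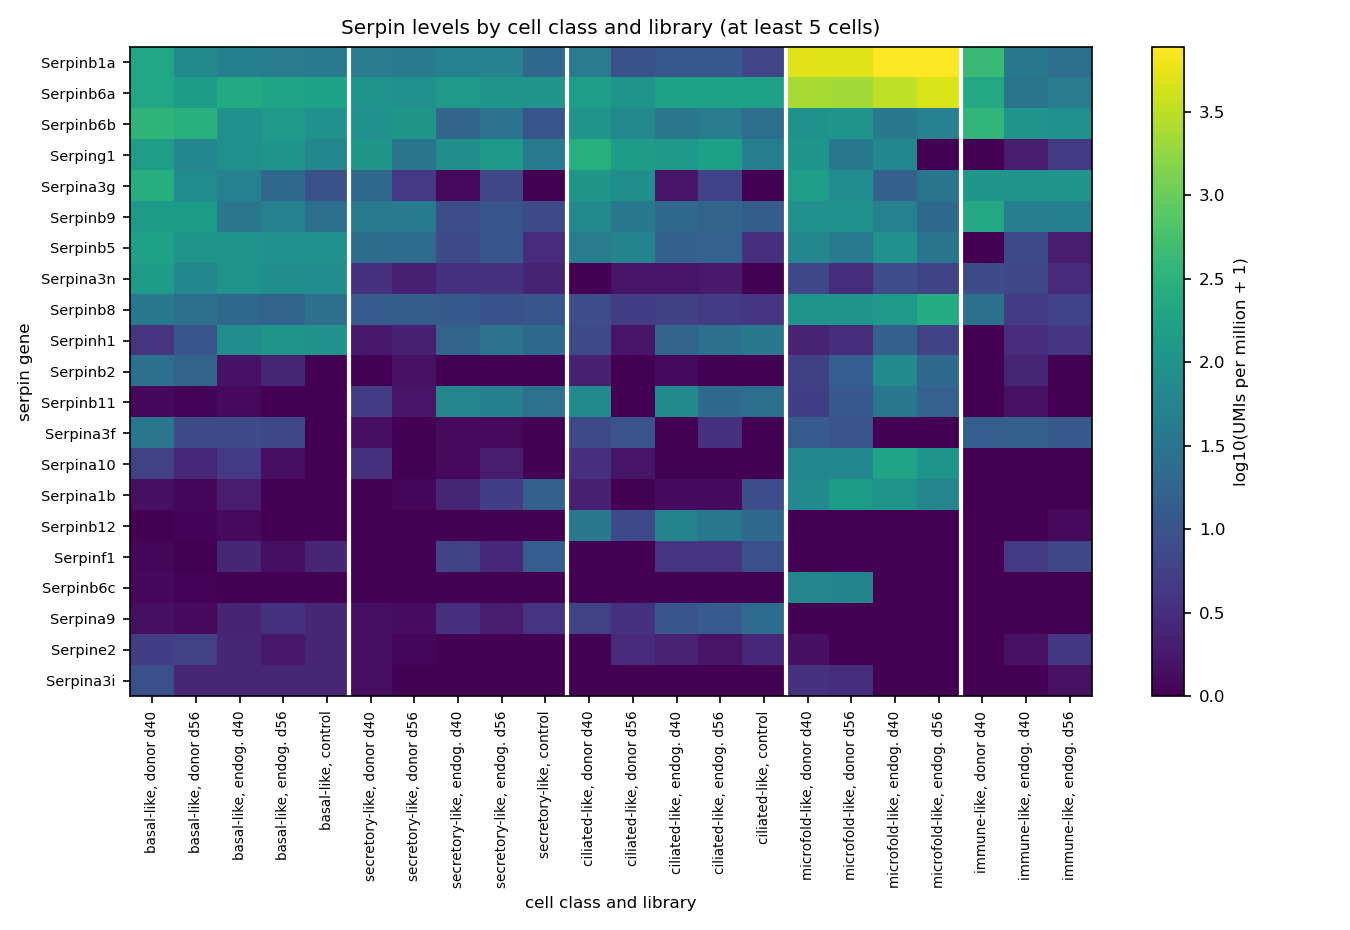
Level of each of the 21 serpin genes (rows) by cell class and library (columns, at least 5 cells), as log10 of CPM plus 1. Serpinb1a and Serpinb6a in microfold-like cells are the brightest, at 2244 CPM or more in all 4 recipient libraries, and Serpinh1 is dark in the donor-derived columns of the basal-like, secretory-like and ciliated-like classes.

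Which serpins differed between donor-derived and endogenous cells of the same class was tested on summed counts with edgeR's quasi-likelihood test, adjusted over all genes tested (Benjamini-Hochberg, threshold 0.05). In basal-like cells 4 of the 15 members tested were called, 3 higher and 1 lower, beside 10.7% of all genes (4.1% higher, 6.61% lower). The members' median log2 fold change was 1.40 and that of all genes 0.00. In secretory-like cells 7 of 11 were called, 3 higher and 4 lower, beside 15.8% of all genes (6.8% higher, 9% lower), with a median of -0.58 against -0.00. In ciliated-like cells 3 of 13 were called, 2 higher and 1 lower, beside 3.85% of all genes (1.92% higher, 1.93% lower), with a median of 0.47 against 0.01. The members tested are those that passed a filter on low counts, so these counts and medians do not describe all 21. The filter also keeps a gene that is high enough in only 1 group. Among the called members with few UMIs in the other group were Serpinb2 in basal-like and Serpinh1 and Serpinb11 in secretory-like cells. The counts and medians above include them and are therefore not independent of this filter. The members' medians depended on the libraries and the classes. Without the donor-derived library of day 40 they were -0.03 in basal-like and -0.13 in ciliated-like cells. In basal-like cells the median was also 0.45 at clustering resolution 0.5, 0.52 without cluster 5 and 0.57 with cluster 16 joined, and in secretory-like cells it was 0.19 with clusters 2, 9 and 11 joined. With the recipient as a block the members called were 7, 7 and 4, beside 16.6%, 19.1% and 5.29% of all genes. Without TMM scaling the median of all genes moved to 0.13, 0.34 and 0.10 in the 3 classes, and the split of higher to lower calls moved from 471 and 759 to 638 and 648, from 684 and 906 to 2358 and 577, and from 202 and 203 to 235 and 141.

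Serpinb9 (chr13:33003250-33017957, GRCm38), an inhibitor of the cytotoxic protease granzyme B, was higher in donor-derived cells. Its level in basal-like cells was 129 CPM on day 40 and 131.5 CPM on day 56 in the donor-derived libraries, 32.1 and 48.1 CPM in the endogenous ones and 24.2 CPM in the control. In secretory-like cells these levels were 40.3 and 39.7 CPM against 7.62 and 9.29 CPM, with 6.69 CPM in the control. Both donor-derived libraries lay above all others in both classes. The log2 fold change was 1.59 ± 0.19 (SE, n = 2 libraries per group; edgeR adjusted p = 0.0032) in basal-like and 1.89 ± 0.20 (edgeR adjusted p = 4.1e-05) in secretory-like cells. Both calls held under every alternative run (15 and 13). In ciliated-like cells Serpinb9 was at 72.1 and 36.2 CPM against 19.2 and 16.01 CPM, 12.9 CPM in the control, with an edgeR adjusted p of 0.059 that became 0.0020 with the recipient as a block. The T and NK cell list, markers of the main cells that make granzymes, summed to at most 1.81 CPM in secretory-like and 12.1 CPM in ciliated-like cells. The part of immune cells in the Serpinb9 results was not tested.

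Serpinb6b (chr13:32965209-32979067), a neighbour of Serpinb9 on chromosome 13, followed the same order. Basal-like cells held 351 and 291 CPM in the donor-derived libraries, 91.8 and 121 CPM in the endogenous ones and 90.4 CPM in the control. Secretory-like cells held 90.6 and 112 CPM against 17.3 and 29.2 CPM, and 9.85 CPM in the control. The donor-derived and endogenous libraries did not overlap in either class. The log2 fold change was 1.47 ± 0.18 (edgeR adjusted p = 0.0032) in basal-like and 1.79 ± 0.25 (edgeR adjusted p = 0.0019) in secretory-like cells. Leaving out the endogenous library of day 40 gave an edgeR adjusted p of 0.063 in basal-like cells, and clustering at resolutions 0.5 and 2.0 gave 0.16 and 0.10 in secretory-like cells. In ciliated-like cells Serpinb6b was at 100.2 and 66.3 CPM against 33.6 and 41.4 CPM, 24.0 CPM in the control, with an edgeR adjusted p of 0.053, or 0.020 with the recipient as a block.

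Serpinh1 (chr7:99345376-99353239), the collagen chaperone, went the other way in all 3 classes. Basal-like cells held 2.95 and 10.1 CPM in the donor-derived libraries, 80.2 and 103.6 CPM in the endogenous ones and 95.3 CPM in the control. Secretory-like cells held 0.875 and 1.19 CPM (2 and 7 UMIs) against 16.5 and 28.9 CPM, with 20.1 CPM in the control. Ciliated-like cells held 6.11 and 0.684 CPM (5 UMIs and 1 UMI) against 16.3 and 25.7 CPM, with 36.4 CPM in the control. Every donor-derived library lay below every endogenous library and below the control. The log2 fold changes were -3.90 ± 0.59 (edgeR adjusted p = 0.032), -4.66 ± 0.43 (edgeR adjusted p = 2.1e-05) and -3.05 ± 0.65 (edgeR adjusted p = 0.044). The secretory-like call held in all 13 alternatives. Without either endogenous library the basal-like adjusted p was 0.21. The ciliated-like call was also lost without either endogenous library, with DESeq2 (adjusted p = 0.070) and without TMM scaling (edgeR adjusted p = 0.051). After each cell was thinned to 5000 UMIs, 1.54% and 4.43% of donor-derived basal-like cells held a Serpinh1 UMI against 33.8% and 40.4% of endogenous ones. The unthinned shares were 2.92% and 8.34% against 54.0% and 67.1%. In immune cells the thinned shares were 1.14% and 0.94% in the endogenous libraries. Median depths there were 8084 and 8391 UMIs per cell against 8983 to 10802.5 UMIs in the basal-like cells compared. The fibroblast list in basal-like cells summed to 447 and 661 CPM in the donor-derived libraries and 657 and 730 CPM in the endogenous ones. Nearly all of it was Dcn, and Col1a1 and Col3a1 were at 0 in every library of this class. Fibroblast-like cells were found only in the endogenous libraries (6 and 21 cells). Their part in the Serpinh1 results was not tested.

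**Figure D2:**
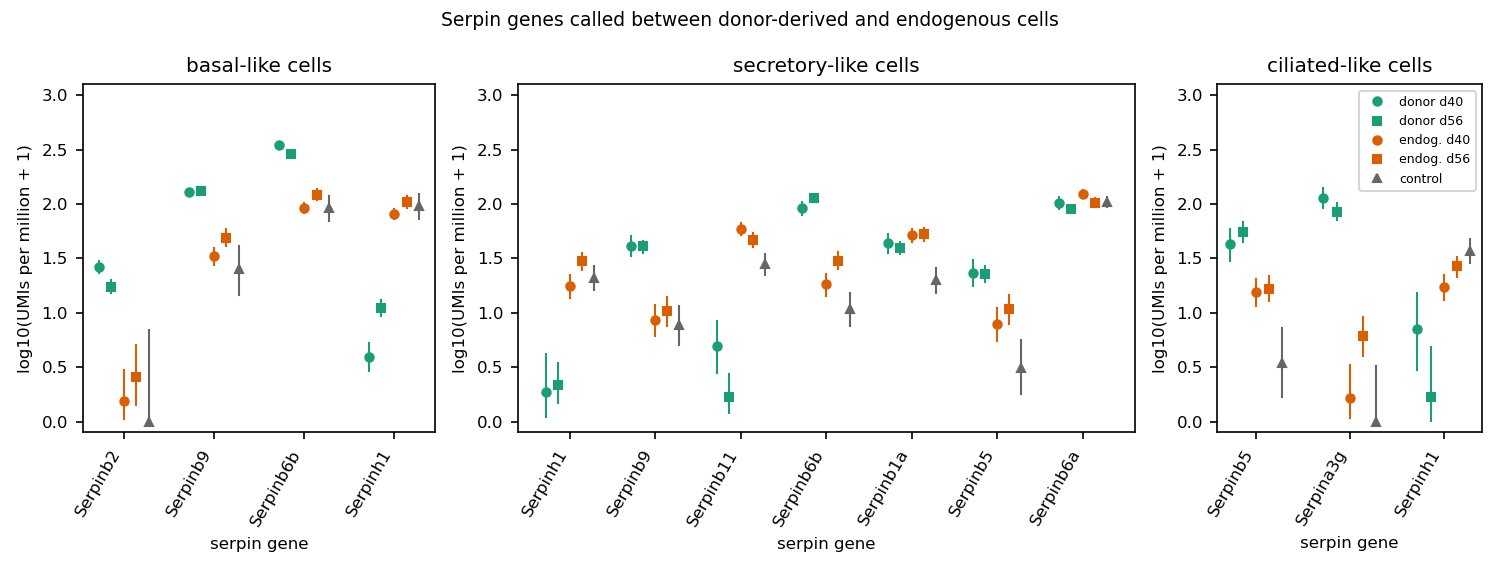
Levels of the serpin genes called between donor-derived and endogenous cells in 3 classes, as log10 of CPM plus 1, with 1 point per library and exact Poisson 95% intervals (counting error only). Serpinb9 and Serpinb6b lie higher and Serpinh1 lower in the donor-derived libraries (green) than in the endogenous ones (orange). The control (grey) is below the donor-derived points of Serpinb9 and Serpinb6b and above those of Serpinh1 in the panels where these genes appear.

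Serpinb2 (chr1:107511423-107535478), plasminogen activator inhibitor 2, was called in basal-like cells, but its direction depended on which clusters form the class. The donor-derived libraries held 25.2 and 16.4 CPM, the endogenous ones 0.540 and 1.58 CPM (2 and 4 UMIs) and the control none. The log2 fold change was 4.27 ± 0.49 (edgeR adjusted p = 0.0027). Cluster 8, a donor-derived cluster led by genes such as Sfn, Krt17 and Krt6a, held 171 of the 222 UMIs on day 40 and 141 of the 180 on day 56, and there Serpinb2 was at 141 and 61.3 CPM. The endogenous cells led by the same keratins were in cluster 16, which scored highest for hillock markers and is no part of the class, and there Serpinb2 was at 194 and 96.0 CPM. Donor-derived cells also formed a hillock-like cluster outside the class, cluster 2 (496 and 115 cells), whose Serpinb2 level is not given here. Basal-like cells held only 30.9% and 41.0% of the Serpinb2 UMIs of the donor-derived libraries. At clustering resolution 2.0, Serpinb2 was a leading gene of a hillock-like cluster with 109 and 17 donor-derived cells. Cluster 16 held 5 and 1 donor-derived and 52 and 62 endogenous cells on day 40 and day 56. Joining it to the class therefore added mainly endogenous hillock-like cells, while cluster 2 stayed out. With cluster 16 joined the log2 fold change was -0.48 (edgeR adjusted p = 0.37). It was -0.19 at clustering resolution 0.5 (edgeR adjusted p = 0.74) and 2.39 without cluster 8 (edgeR adjusted p = 0.042). With classes from each cell's marker UMIs it was 1.18 (edgeR adjusted p = 0.076), and without the endogenous library of day 40 the edgeR adjusted p was 0.051.

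Serpinb8, an inhibitor of furin-like proteases, showed the same dependence on cluster 16. Its basal-like levels were 36.2 and 26.0 CPM in the donor-derived libraries and 18.6 and 16.5 CPM in the endogenous ones, with 25.8 CPM in the control. In cluster 16 it was at 115 and 101 CPM. Its log2 fold change of 0.69 ± 0.23 was not called (edgeR adjusted p = 0.12, or 0.027 with the recipient as a block). It was -0.25 with cluster 16 joined, which added mainly endogenous cells. Serpinb5 (maspin), which inhibits no protease, stood at 169 and 102 CPM in the donor-derived and 99.9 and 93.0 CPM in the endogenous libraries of basal-like cells, with 93.6 CPM in the control. It too was highest in cluster 16, at 337 and 281 CPM, and in cluster 8, at 330 and 181 CPM.

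Serpinb5 was called in ciliated-like and secretory-like cells. Ciliated-like cells held 41.5 and 54.7 CPM in the donor-derived libraries, 14.4 and 15.7 CPM in the endogenous ones and 2.47 CPM in the control, a log2 fold change of 1.60 ± 0.23 (edgeR adjusted p = 0.0082). That call was lost without either endogenous library (edgeR adjusted p up to 0.16). Secretory-like cells held 22.3 and 21.7 CPM against 6.86 and 9.81 CPM, with 2.11 CPM in the control. The log2 fold change of 1.05 ± 0.24 (edgeR adjusted p = 0.0093) fell short of the threshold under 6 of 13 alternatives, among them leaving out the endogenous library of day 40 (edgeR adjusted p = 0.11), and was 0.00 at clustering resolution 0.5. In both classes the control was below both groups.

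Serpinb11 (chr1:107361198-107380475) separated the secretory-like cells. It was at 3.94 and 0.679 CPM (9 and 4 UMIs) in the donor-derived libraries, 58.2 and 45.9 CPM in the endogenous ones and 27.1 CPM in the control. Both donor-derived libraries lay below all others, and the log2 fold change was -5.29 ± 0.43 (edgeR adjusted p = 0.00015). Its size depended on the class: it was -2.76 with clusters 2, 9 and 11 joined, -3.48 with classes from marker UMIs and -4.17 at clustering resolution 0.5, where it was not called (edgeR adjusted p = 0.075). Leaving out the donor-derived library of day 40 or of day 56 gave -6.51 or -4.09. In ciliated-like cells it did not sort by group: 72.1 CPM and 0 CPM in the donor-derived libraries, 71.1 and 20.5 CPM in the endogenous ones and 24.0 CPM in the control (edgeR adjusted p = 0.89). Basal-like cells held at most 2 UMIs in any library. Serpinb12 was found mainly in ciliated-like cells, at 36.6 and 6.15 CPM in the donor-derived libraries, 53.2 and 36.2 CPM in the endogenous ones and 20.3 CPM in the control, and was not called (edgeR adjusted p = 0.44). Serpina9 in ciliated-like cells was at 4.89 and 2.73 CPM against 9.61 and 12.1 CPM, with 21.6 CPM in the control (edgeR adjusted p = 0.099). Of the 41 donor-derived ciliated-like cells of day 40, 11 and 8 lay in clusters 6 and 12 with most endogenous ones. Their part in these day 40 levels was not tested.

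Serpinb1a (chr13:32842092-32851185), an inhibitor of neutrophil elastase and cathepsin G, and Serpinb6a (chr13:33917918-34002794), an inhibitor of cathepsin G, were highest in microfold-like cells, the antigen-sampling cells of epithelia. Serpinb1a reached 5080 and 4891 CPM in the donor-derived microfold-like cells and 7696 and 7485 CPM in the endogenous ones, against at most 193 CPM in basal-like, 51.6 CPM in secretory-like and 44.0 CPM in ciliated-like cells of any library. Serpinb6a reached 2373 and 2244 CPM in the donor-derived and 3314 and 4635 CPM in the endogenous libraries of this class, and between 89.3 and 239 CPM in the 3 other epithelial classes. The clusters were made from all genes, Serpinb1a among them, so levels between classes are given without a test. When microfold-like cells were instead taken from each cell's marker UMIs, a list with no serpin in it, Serpinb1a was at 3618, 2854, 4283 and 6397 CPM in the same order of libraries. That assignment put 8.65% of all cells within 0.1 of the next list. On day 40, microfold-like cells held 86.9% of all Serpinb1a UMIs of the donor-derived library, and on day 56 63.9%. Over the whole donor-derived library Serpinb1a was at 25179 UMIs on day 40 and 3413 UMIs on day 56. Microfold-like cells numbered 216 and 27, at 5080 and 4891 CPM, or 3618 and 2854 CPM by marker UMIs. Donor-derived basal-like cells held 193 and 72.1 CPM, secretory-like cells 42.4 and 38.5 CPM and ciliated-like cells 44.0 and 8.20 CPM. Each day is 1 library, and the part of each class in this difference was not tested.

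Other members that were highest in microfold-like cells among these classes were Serpinb8 (100.1 and 101 CPM in donor-derived cells, 123 and 253 CPM in endogenous cells), Serpina10, the protein Z-dependent inhibitor of coagulation factor Xa (58.8 and 62.9 against 188 and 103 CPM), and Serpina1b, an alpha-1-antitrypsin (68.1 and 128 against 101 and 56.8 CPM). The endogenous values rest on 9 and 8 cells. The donor-derived microfold-like cells also held Serpina3g (143 and 76.4 CPM), Serpinb6b (96.7 and 105.6 CPM), Serpinb9 (91.5 and 94.4 CPM) and Serping1 (108 and 35.9 CPM). Serpinb6c (chr13:33879816-33905708) was found almost nowhere else: 250 and 25 UMIs in donor-derived microfold-like cells (58.1 and 56.2 CPM) were 98.4% and 89.3% of all its UMIs in those libraries. The endogenous microfold-like cells held 0 UMIs, whose exact Poisson upper limits were 26.6 and 19.04 CPM. These limits cover counting error only, not the spread between cells, and rest on 9 and 8 cells. Over all cells of the donor-derived libraries, 3.84% and 0.693% held a Serpinb6c UMI. Absence from endogenous microfold-like cells is therefore not shown. Transcripts of Serpina1b share 13.8% of their 100-base windows with other serpin genes, mainly Serpina1a, so its counts may be split between copies. Serpinb1a, Serpinb6a, Serpinb6b and Serpinb6c share none.

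**Figure D3:**
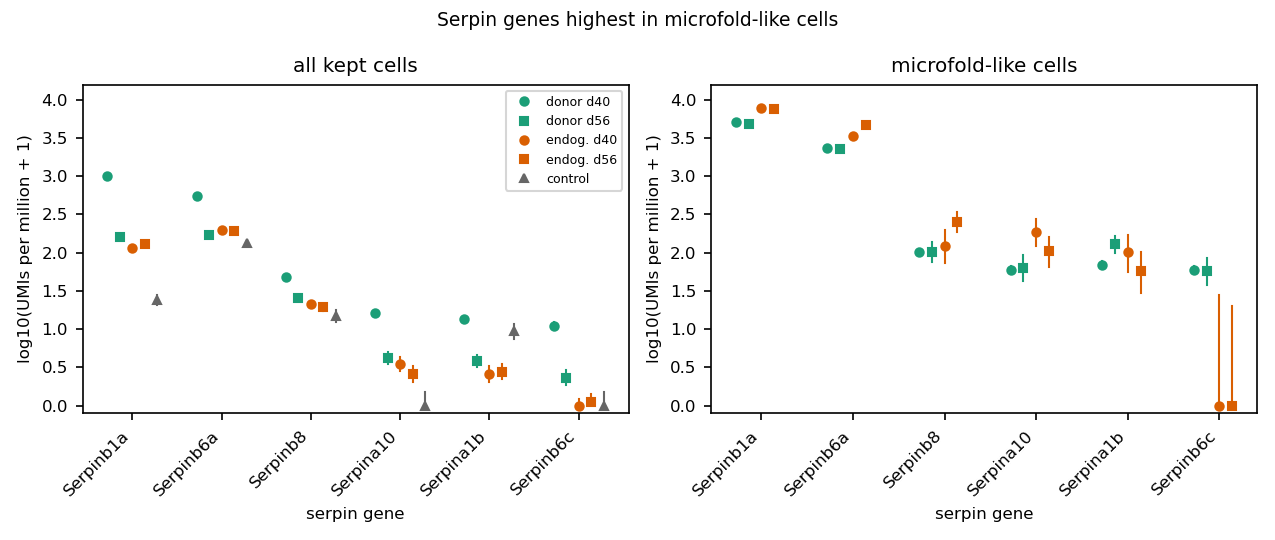
Levels of 6 serpin genes in all kept cells (left) and in microfold-like cells (right), as log10 of CPM plus 1, with 1 point per library and exact Poisson 95% intervals. In the whole libraries Serpinb1a is higher on day 40 than on day 56 in the donor-derived cells. In donor-derived microfold-like cells, as clustered, it is 5080 and 4891 CPM. The control has no point on the right because it held no such cells.

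Serpinb1a in secretory-like cells stood at 42.4 and 38.5 CPM in the donor-derived and 50.6 and 51.6 CPM in the endogenous libraries, with 19.003 CPM in the control, a log2 fold change of -0.69 ± 0.15 (edgeR adjusted p = 0.0058). Serpinb6a was at 102 and 89.3 CPM against 123 and 101.9 CPM, with 103.8 CPM in the control, and was called at -0.58 ± 0.13 (edgeR adjusted p = 0.0097), although the groups overlap in these unscaled levels. Without the endogenous library of day 40 the Serpinb6a call was lost (edgeR adjusted p = 0.15). Both calls were lost without TMM scaling, where the log2 fold changes were -0.34 (edgeR adjusted p = 0.10) and -0.24 (edgeR adjusted p = 0.22). Both were also lost with DESeq2 (adjusted p = 0.13 and 0.097) and with clusters 2, 9 and 11 joined (-0.12 and -0.35; edgeR adjusted p = 0.86 and 0.13), and Serpinb1a with classes from marker UMIs (-0.47, edgeR adjusted p = 0.20). In basal-like cells Serpinb1a was at 193 and 72.1 CPM against 46.4 and 43.3 CPM, 38.8 CPM in the control (edgeR adjusted p = 0.26), and Serpinb6a at 192 and 131 CPM against 239 and 186 CPM, 168 CPM in the control (edgeR adjusted p = 0.23; 0.023 with the recipient as a block).

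The Serpina3 genes, a group of mouse antichymotrypsin-like inhibitors side by side on chromosome 12, include members known to be induced by interferon. RefSeq promoters (GRCm38.p6, 250 bases before to 50 after the start) are shown for 3 of them and for Serpina3n, because these neighbours differed in where they were expressed. Capitals mark TTCNNNGAA, the GAS letters bound by STAT factors, searched on both strands, where it reads the same. These letters were in 8.30% of all 32851 promoters of this length.
Serpina3g, chr12:104235897-104236196, plus strand: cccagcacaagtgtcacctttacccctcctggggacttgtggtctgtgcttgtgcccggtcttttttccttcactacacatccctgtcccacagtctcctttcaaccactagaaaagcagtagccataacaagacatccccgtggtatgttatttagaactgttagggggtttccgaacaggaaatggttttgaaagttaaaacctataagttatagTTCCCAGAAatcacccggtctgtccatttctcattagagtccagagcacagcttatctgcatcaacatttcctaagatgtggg
Serpina3f, chr12:104214294-104214593, plus strand: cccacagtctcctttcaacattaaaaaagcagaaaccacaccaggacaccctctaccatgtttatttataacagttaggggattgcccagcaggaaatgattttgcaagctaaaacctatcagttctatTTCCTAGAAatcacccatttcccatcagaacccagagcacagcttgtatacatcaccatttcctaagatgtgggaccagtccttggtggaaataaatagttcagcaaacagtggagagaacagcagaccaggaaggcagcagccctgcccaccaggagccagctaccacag
Serpina3i, chr12:104262872-104263171, plus strand: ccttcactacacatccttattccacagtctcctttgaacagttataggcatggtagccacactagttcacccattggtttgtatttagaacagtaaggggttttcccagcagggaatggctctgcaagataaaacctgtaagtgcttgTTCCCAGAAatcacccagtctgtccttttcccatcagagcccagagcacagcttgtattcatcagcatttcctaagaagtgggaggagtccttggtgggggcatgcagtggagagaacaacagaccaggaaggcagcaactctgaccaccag
Serpina3n, chr12:104406458-104406757, plus strand: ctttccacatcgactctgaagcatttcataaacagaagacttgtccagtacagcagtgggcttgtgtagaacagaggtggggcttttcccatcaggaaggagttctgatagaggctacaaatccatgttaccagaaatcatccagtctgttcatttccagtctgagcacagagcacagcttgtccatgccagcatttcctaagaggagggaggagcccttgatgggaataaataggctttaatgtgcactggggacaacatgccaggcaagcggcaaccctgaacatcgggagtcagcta
The letters were found once each in Serpina3g, Serpina3f and Serpina3i and were not in this window of Serpina3n. Among the other members with a listed promoter, they were also in Serpinb2 and in a promoter of Serpinb6a, and not in that of Serpinb9. Other letter patterns were searched as well and are not shown, and no link of the letters to expression was tested. A match describes the letters only.

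Serpina3g (chr12:104236245-104241939) in basal-like cells stood at 258 and 76.8 CPM in the donor-derived libraries, 47.8 and 20.5 CPM in the endogenous ones and 8.07 CPM in the control. The donor-derived libraries lay above the endogenous ones but differed widely from each other, and the log2 fold change of 2.14 ± 0.86 was not called (edgeR adjusted p = 0.29). With the recipient as a block the edgeR adjusted p was 0.00025, and it is 1 of the 3 members that this fit adds to the calls in basal-like cells, with Serpinb6a and Serpinb8. Within the class Serpina3g was concentrated in cluster 5, at 520 and 392 CPM in the donor-derived libraries, while cluster 0 held at most 13.9 CPM. It is itself 1 of the leading genes of cluster 5, and without that cluster the log2 fold change was 0.71 (edgeR adjusted p = 0.66). In ciliated-like cells Serpina3g stood at 114 and 84.1 CPM in the donor-derived libraries, 0.640 and 5.13 CPM (2 and 17 UMIs) in the endogenous ones and 0 UMIs in the control. In secretory-like cells it was at 19.7 and 3.395 CPM against 0.254 and 5.68 CPM, and the groups overlapped (edgeR adjusted p = 0.74). The ciliated-like log2 fold change was 4.93 ± 0.55 (edgeR adjusted p = 0.014), and its edgeR adjusted p was 0.15 with the recipient as a block.

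Serpina3f followed Serpina3g at a lower level: 73.0 and 35.5 CPM in cluster 5, and 32.5 and 6.83 CPM over all donor-derived basal-like cells against 6.75 and 5.91 CPM in endogenous ones and 0 UMIs in the control. It was not called (edgeR adjusted p = 0.50). Serpina3i was at 7.83 and 1.64 CPM against 1.62 and 1.58 CPM, with 1.62 CPM in the control (edgeR adjusted p = 0.47). Serpina3n, a secreted inhibitor raised in tissue injury, was found in basal-like cells of all groups. Like Serpina3g, it was among the leading genes of cluster 5. Its basal-like levels were 141 and 62.9 CPM in the donor-derived libraries, 99.9 and 84.7 CPM in the endogenous ones and 80.7 CPM in the control. Its log2 fold change was 0.01 ± 0.43 (edgeR adjusted p = 0.99). In secretory-like cells Serpina3n was at most 2.63 CPM. Transcripts of Serpina3f, Serpina3g and Serpina3i share 1.46%, 1.64% and 2.25% of their 100-base windows with other serpin genes.

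**Figure D4:**
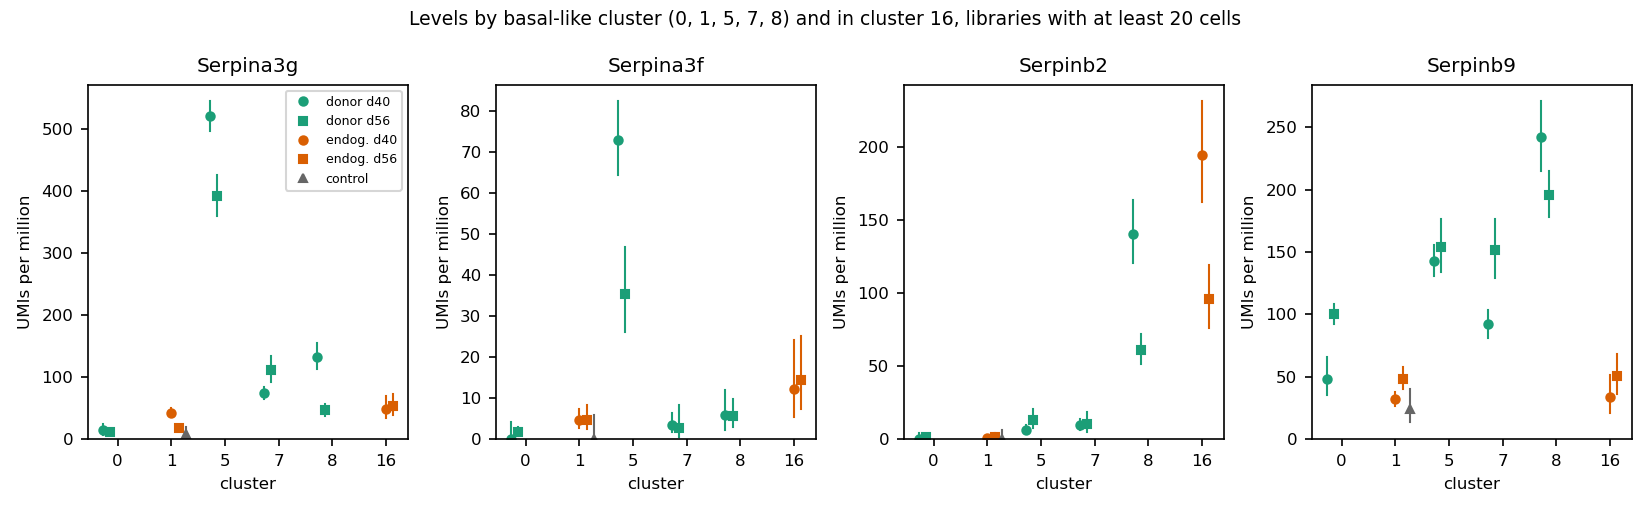
Levels of Serpina3g, Serpina3f, Serpinb2 and Serpinb9 in CPM in the basal-like clusters and in cluster 16, with 1 point per library of at least 20 cells and exact Poisson 95% intervals. The donor-derived cells of hillock-like cluster 2 are not shown. Serpina3g and Serpina3f are highest in cluster 5, Serpinb2 in clusters 8 and 16, and Serpinb9 lies at 92.1 CPM or more at every donor-derived point except the day 40 point of cluster 0 (48.5 CPM), with the endogenous points at 50.4 CPM or less.

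Serping1 (chr2:84765387-84775444), the C1 inhibitor of complement and contact activation, was found in all 3 main epithelial classes. In basal-like cells it stood at 145 and 61.9 CPM in the donor-derived and 87.8 and 110 CPM in the endogenous libraries, with 61.4 CPM in the control, and the groups overlapped. In secretory-like cells it was at 111 and 31.6 CPM against 82.6 and 118 CPM, with 38.0 CPM in the control, and in ciliated-like cells 270 and 135 CPM against 117 and 153 CPM, with 44.99 CPM in the control. No class called it (edgeR adjusted p = 0.96, 0.63 and 0.53). It was the only member called in the test of whether the difference between groups itself differed between secretory-like and basal-like cells, with a log2 value of -0.89 ± 0.19 (edgeR adjusted p = 0.012), beside 5.37% of all genes (2.7% higher, 2.67% lower). In that test 1 of 15 members was called, and the split over all genes moved from 305 higher and 301 lower to 612 and 204 without TMM scaling. The Serping1 call was lost under 4 of 7 alternatives, among them clustering resolution 0.5 (edgeR adjusted p = 0.17) and DESeq2 (adjusted p = 0.17). Serpinb1a, at -1.89 ± 0.55 and not called here (edgeR adjusted p = 0.25), was the 1 member called in place of Serping1 with DESeq2 (-1.93, adjusted p = 0.015), at resolution 2.0 (-1.67, edgeR adjusted p = 3.1e-05) and with classes from marker UMIs (-0.89, edgeR adjusted p = 0.017). With no filter on low counts Serping1, Serpinb1a, Serpinb5 and Serpinb11 were called, beside 906 of 17956 genes.

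Serpine2 (protease nexin-1, an inhibitor of thrombin and plasminogen activators) stood at 4.09 and 4.55 CPM in the donor-derived and 1.62 and 0.788 CPM in the endogenous libraries of basal-like cells, with 1.62 CPM in the control (edgeR adjusted p = 0.091). Serpinf1 (pigment epithelium-derived factor) was at 0 UMIs in donor-derived secretory-like and ciliated-like cells, and at 5.34 and 1.81 CPM in endogenous secretory-like cells. In the fibroblast-like cluster of the endogenous libraries, which held 6 and 21 cells, Serpinf1 was at 889 and 727 CPM, Serping1 at 1975 and 1925 CPM and Serpinh1 at 691 and 401 CPM. Serpine2 was at 0 and 75.6 CPM there.

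In immune cells of the endogenous libraries Serpina3g was at 240 and 164 CPM in B-cell-like and 123 and 153 CPM in macrophage-like cells of day 40 and day 56. Serpinb6b was at 293 and 215 CPM in dendritic-like cells, and Serpinb9 at 95.04 and 68.2 CPM in macrophage-like cells. Over all immune cells Serpinb6b was at 103.5 and 90.4 CPM, and Serpinb1a at 36.7 and 24.8 CPM, below its level in endogenous basal-like cells. Serping1, Serpinb5 and Serpinh1 were at 6.21 CPM or less.

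The uninjured control is 1 library, so it was compared without a test, by whether both endogenous libraries lay outside its exact Poisson 95% interval, which covers counting error only. Both lay above it for Serping1 in all 3 epithelial classes, for Serpinb6b and Serpinb5 in secretory-like and ciliated-like cells, for Serpinb1a and Serpinb11 in secretory-like cells, for Serpina3g in basal-like cells and for Serpinb12 in ciliated-like cells. Both lay below it for Serpina1b and Serpinf1 in secretory-like and ciliated-like cells, and for Serpinh1 and Serpina9 in ciliated-like cells. In secretory-like cells Serpina1b was at 14.4 CPM in the control against 1.52 and 4.13 CPM in the endogenous libraries, and Serpinf1 was at 13.7 CPM in the control. The other members and classes met neither condition.

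Among serine proteases that serpins can inhibit, 19 of 50 listed genes were tested in basal-like cells, of which 1 was higher and 6 lower in donor-derived cells. Their median log2 fold change was 0.19. Of all genes tested in this class, 4.1% were higher and 6.61% lower. Hpn (hepsin, a membrane-bound serine protease) was higher by 1.04 ± 0.17 (edgeR adjusted p = 0.0094). Tmprss2, the airway membrane protease that primes viral spike proteins, stood at 0.227 and 0.547 CPM in the donor-derived and 14.3 and 18.5 CPM in the endogenous libraries (edgeR adjusted p = 0.00054). Tmprss11a and Klk8 were lower, with log2 fold changes of -4.63 ± 0.38 and -2.03 ± 0.20 (edgeR adjusted p = 0.00058 and 0.0012). In secretory-like cells 5 of 15 tested were higher and 4 lower, with a median of 0.16, beside 6.8% higher and 9% lower of all genes. There Plat, tissue plasminogen activator and a target of Serpinb2 and Serpine2, was at 32.4 and 31.2 CPM against 5.34 and 4.90 CPM (edgeR adjusted p = 2.1e-05), and Prss22 and Tmprss4 were also higher. Tmprss2, Klk11 and Klk10 were lower there. In ciliated-like cells Klk11 was the only 1 of 11 called, beside 3.85% of all genes, with a log2 fold change of -1.87 ± 0.31 (edgeR adjusted p = 0.016).

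Some clade B serpins can inhibit cysteine proteases, and 12 genes of this type were listed. Whether a serpin inhibits each of them is not shown by these data. In basal-like cells 10 were tested, with 2 higher and 1 lower, beside 4.1% higher and 6.61% lower of all genes. In secretory-like cells 10 were tested, with 3 higher and 1 lower, beside 6.8% higher and 9% lower of all genes. Ctsc (cathepsin C, which activates granule serine proteases) in basal-like cells stood at 206 and 182 CPM in the donor-derived and 45.9 and 49.7 CPM in the endogenous libraries (edgeR adjusted p = 0.00038). Ctsh was higher in both classes, by 0.80 ± 0.14 and 0.69 ± 0.12 (edgeR adjusted p = 0.012 and 0.0016), and Ctss was higher in secretory-like cells. Ctsz in basal-like, Ctsl in secretory-like and Ctsk in ciliated-like cells were lower. Among protease inhibitors of other families, 1 of 10 was higher and 1 lower in basal-like cells, 3 of 11 were higher in secretory-like cells and 1 of 10 in ciliated-like cells. Of all genes in ciliated-like cells, 1.92% were higher. Timp3 was at 297 and 243 CPM against 61.2 and 40.0 CPM in secretory-like cells (edgeR adjusted p = 3.5e-05), with Cst3 and Timp2 also higher. Timp2 was higher and Wfdc2 lower in basal-like cells (1730 and 1863 CPM against 4307 and 4122 CPM; edgeR adjusted p = 0.00048), and Timp4 was higher in ciliated-like cells. The medians of these lists lay between 0.04 and 0.36, beside medians of all genes between -0.00 and 0.01.

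**Figure D5:**
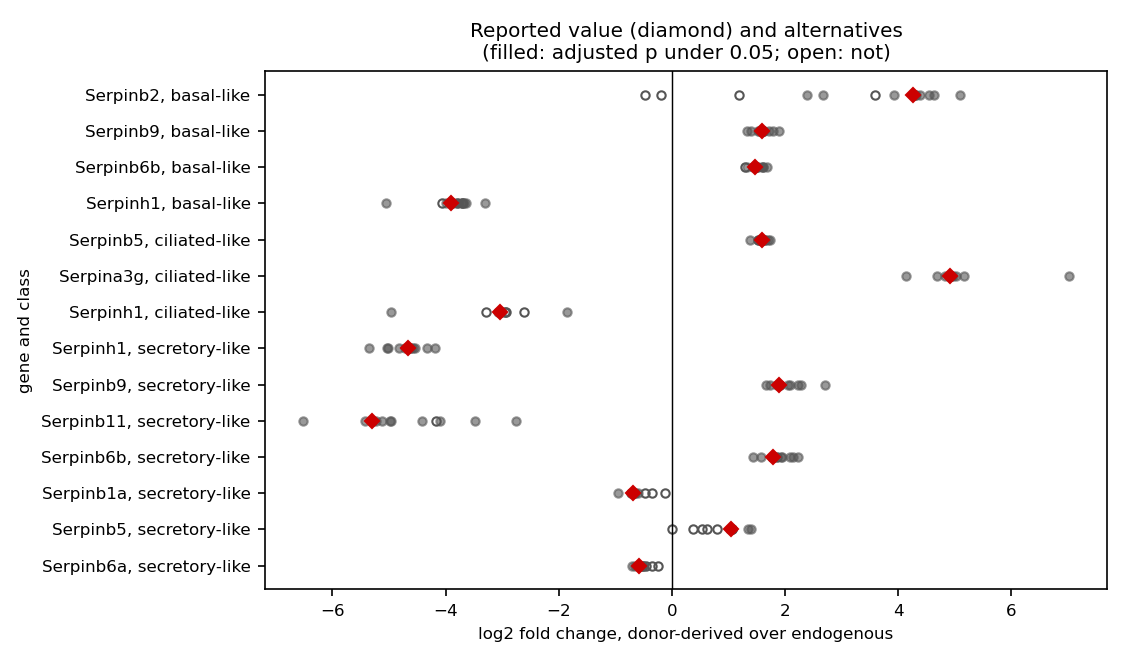
Log2 fold change of donor-derived over endogenous cells for each called serpin and class, as reported (diamond) and under each alternative (circles, filled where the adjusted p was under 0.05). Only the circles of Serpinb2 in basal-like cells cross 0, reaching -0.48, and those of Serpinb5 in secretory-like cells come down to 0.00.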

How the data were processed

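Single-cell RNA was measured in 5 libraries (10x Chromium). The authors deposited whole-number UMI counts for every gene in each barcode, as the values and feature names show, on a combined human and mouse reference. Cell Ranger, STARsolo, Seurat, GRCm38 and GRCh38 are listed in the submitters' processing notes. Which tool made the matrices and how barcodes were called are not given in the sources used here. The labels give the groups.

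Barcodes with over 10% human UMIs (192, all in the control), under 500 genes or over 20% mitochondrial UMIs (38), and Scrublet doublets (48, 0.727%) were left out. Clustering (scanpy 1.11.5, leidenalg 0.10.2: 2000 variable genes, 30 components, 15 neighbours, resolution 1.0, seed 1) gave 25 clusters. A cluster took the name of the marker list with the highest mean standardised expression if at least 3 markers were detected in 10% of its cells and no other list held more of its 10 leading genes. This naming rule was set after seeing the data. Hillock-like clusters 2 and 16 differed in their leading genes and are described by number.

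Levels are CPM of summed UMIs with exact Poisson 95% intervals, for counting error only. Summed counts were fitted with edgeR 4.0.16 (R 4.3.3; TMM, filterByExpr, robust quasi-likelihood), for classes of at least 20 cells in each library. SE is the log2 fold change over the square root of F. The fits were also run on simulated counts, with the same spread for every gene and no pairing by recipient. These settings differ from the data, and the outcome is not given here. The day pairs libraries by recipient, per the series' design text. Across genes, the day 40 minus day 56 differences of the groups correlated at 0.28, 0.10 and -0.03 (basal-like, secretory-like, then ciliated-like cells). Alternatives were blocking on the recipient, DESeq2 1.42.0, no filter, other scaling, other cell classes and leaving out each library in turn.

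Members and lists were chosen with earlier results of these data known. Every member is named. Values per library are given for those called, or at 20 CPM or more in a class of at least 20 cells. From each other list up to 3 called genes per class and direction are named. Fits that join or leave out clusters, and the fit without TMM, were added after seeing the data. Coordinates are from GENCODE (GRCm38), promoters from RefSeq (GRCm38.p6).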

Additional observations from a re-analysis of the deposited data

Results flagged for a closer look

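Serping1 was singled out because its difference between donor-derived and endogenous cells itself differed between 2 classes. The log2 difference of secretory-like minus basal-like cells was -0.89 (edgeR adjusted p = 0.012). On day 40 Serping1 was higher in donor-derived than in endogenous cells in both classes, at 145 against 87.8 CPM in basal-like and 111 against 82.6 CPM in secretory-like cells. On day 56 it was lower in both, at 61.9 against 110 CPM and 31.6 against 118 CPM. The call was lost with DESeq2 (adjusted p = 0.17), at clustering resolutions 0.5 and 2.0 (edgeR adjusted p = 0.17 and 0.31) and with classes from marker UMIs (-0.21, edgeR adjusted p = 0.85). The macrophage list, nearly all Lyz2, summed to 76.1 and 231 CPM in the donor-derived and 4462 and 10017 CPM in the endogenous libraries of secretory-like cells, and its part in this result was not tested.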

How the results depend on the processing

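In basal-like cells 1230 genes and 4 members were called. Leaving out 1 library at a time gave 309 to 2071 genes and 1 to 10 members, no filter on low counts 2469 and 11, and the replicate block 1911 and 7. In ciliated-like cells (405 genes, 3 members) leaving out 1 library gave 50 to 2110 genes and 1 to 8 members, and no filter 791 and 6. The lowest counts came without the endogenous library of day 40 in both classes, where 1 group is a lone library assumed to vary like the other. The highest came without the donor-derived library of day 56 in basal-like and of day 40 in ciliated-like cells. In secretory-like cells (1590 genes) DESeq2 called 823 and library totals without TMM 2935. In the test between classes (606 genes, 1 member) DESeq2 called 187 genes, clustering resolution 0.5 called 339 and no member (0), and classes from marker UMIs 334. No filter called 4 of 21 members beside 906 of 17956 genes. Totals without TMM called 2 of 15 members beside 816 of 11290 genes. With resolution 0.5, 1644 genes had an unadjusted p under 0.05 in that test. Directions reversed for Serpinb2 in basal-like cells (-0.19 at resolution 0.5, -0.48 with cluster 16 joined) and for Serpinb8, not called there (-0.16, -0.25, and -0.03 with marker UMIs). Joining cluster 16 added mainly endogenous cells. The cause of these shifts was not tested. The fits that join or drop clusters, and those without TMM, were chosen after seeing the data. Serpinb9 in basal-like and secretory-like cells and Serpinh1 in secretory-like cells kept their direction and stayed called under every alternative run. The replicate block ended the Serpina3g call in ciliated-like cells and added Serpina3g, Serpinb6a and Serpinb8 in basal-like and Serpinb6b and Serpinb9 in ciliated-like cells. Values under 10 CPM rest on few UMIs, and microfold-like cells of the endogenous libraries on 9 and 8 cells.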
